A study of Homo sapiens with 6 samples.

Results

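The transcripts of 31 p53 target genes were followed in MDA-MB-231 cells, an established human triple-negative breast cancer line, after transfection with an siRNA against NRDE2. The genes were chosen as a list of names (MDM2, MDM4, PPM1D, BBC3, PMAIP1, TP53I3, TP53INP1, TP53I11, SESN1, SESN2, GDF15, FAS, TNFRSF10A, TNFRSF10B, ZMAT3, RRM2B, PLK2, PLK3, BTG2, FDXR, AEN, GADD45A, CCNG1, PHLDA3, C12orf5, SPATA18, PERP, EI24, TRIAP1, SFN and RPRM), and each of the 31 names matched a row of a table of 25365 rows. C12orf5 is the older symbol of TIGAR. Of the 31, 29 reached at least 1 FPKM (fragments per kilobase of transcript, scaled to library depth) in at least 3 libraries and were tested among 11789 genes. The study holds 3 libraries of cells that received an NRDE2 siRNA (si-NRDE2-2) and 3 of cells that received a non-targeting siRNA as control (si-Control), both at 20 nM for 48 h. All 6 libraries come from one line, and a single NRDE2 siRNA was used, so effects of that siRNA on other transcripts cannot be told apart from NRDE2 loss. The labels do not state that replicates came from separate cultures. The p-values therefore cover the spread among these libraries alone, which may be technical.

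In cells with wild-type p53, DNA damage and other stresses stabilise the protein, which binds DNA as a tetramer at response elements built of paired 10-base motifs and raises the transcription of genes for cell cycle arrest, repair, metabolic adjustment and death, together with inhibitors of p53 itself such as MDM2. Many of the same genes keep a basal level without p53 and also answer to other factors, among them ATF4 and its partners for SESN2, GDF15 and TNFRSF10B. NRDE2 is a nuclear partner of the helicase MTREX, which feeds RNA to the exosome, and the knockdown was set against control cells to find transcripts that respond to its loss.

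NRDE2 itself was at 0.230, 0.234 and 0.229 FPKM in si-NRDE2-2 replicates 1, 2 and 3, against 4.39, 4.45 and 3.80 FPKM in si-Control replicates 1, 2 and 3, so each library matched its label. Library depth, estimated from the value of 1 fragment among low genes, was 42100000 to 53200000 fragments with si-NRDE2-2 and 48800000 to 57700000 with si-Control. Of the line's markers, VIM averaged 1131 and 1200 FPKM in the si-NRDE2-2 and si-Control groups, and ESR1 and PGR stayed below 0.005 FPKM in every library. ERBB2, listed among the markers taken as low in this line, was not low in this table, at 10.6 ± 0.395 and 12.8 ± 0.166 FPKM, and fell with si-NRDE2-2 (-0.27 ± 0.05). CDKN2A was at or near 0 throughout (at most 0.0351 FPKM). Of all 11789 genes tested, 44.0% passed an adjusted p of 0.05 (limma), 20.9% higher and 23.0% lower with si-NRDE2-2.

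The p53 targets did not move as one. With si-NRDE2-2, 4 of the 29 tested members rose (SESN1, TP53I11, TP53INP1 and PLK2) and 12 fell (FAS, GDF15, TNFRSF10A, SFN, FDXR, TP53I3, PLK3, RRM2B, AEN, MDM2, SESN2 and EI24), while 13 did not pass. That is 13.8% higher and 41.4% lower, beside 20.9% and 23.0% of all genes tested. A further list of p53 targets, given below, leaned the other way, with 33.3% of its 21 tested genes higher and 9.52% lower. The sizes were small: the median log2 fold change of the 29 was -0.08 (-0.02 over all genes tested), and the median absolute change was 0.14, the same as over all genes to that precision. Calls past 0.32 on the log2 scale numbered 3 among members that rose and 3 among those that fell, or 20.7% of the 29, beside 17.8% of all genes (9.15% higher and 8.69% lower). The count of 12 rests on small changes: leaving out si-Control replicate 2 left 7 lower members (24.1%, beside 17.0% of all genes in that fit), and 5 of the calls (MDM2, SESN2, RRM2B, FDXR and EI24) were lost in some alternatives. The other 11 calls held their direction and their side of the threshold in each of the alternatives in which the gene could be tested.

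**Figure D1:**
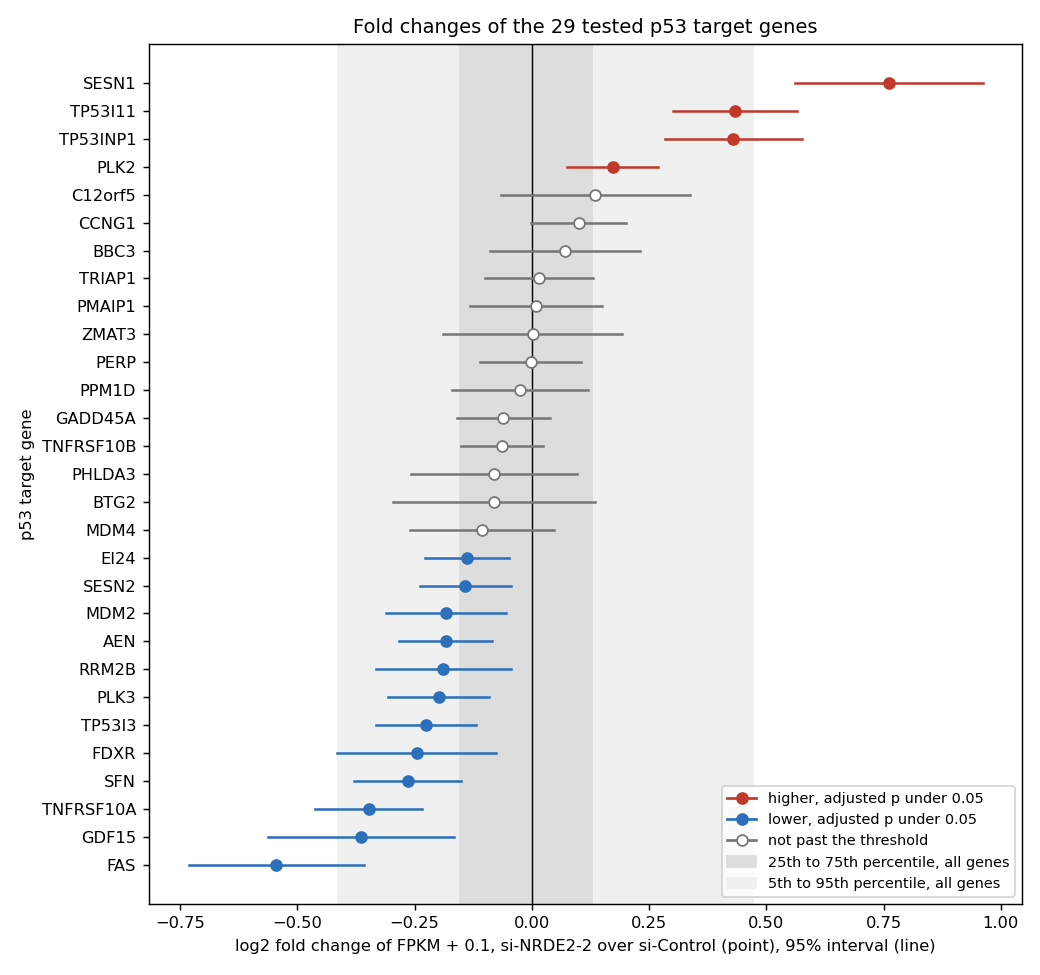
Log2 fold change of FPKM + 0.1 (horizontal axis, si-NRDE2-2 over si-Control) with its 95% interval for the 29 tested p53 target genes, over the spread of all 11789 genes (grey bands). SESN1 at 0.76 and FAS at -0.55 lie beyond the 5th to 95th percentile band of all genes, which runs from -0.41 to 0.47.

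Members that rose are shown first by a stretch of their 3′ UTR, because 3 of the 4 share a feature there. The 3 short sequences searched for (GACGTA and, one base longer, GACAGTA as well as GACTGTA) had been picked by an earlier scan of these same fold changes for 3′ UTR sequences common among genes that rose, so the counts below describe the data and are no independent evidence. Each stretch is 30 bases of the GENCODE release 29 transcript on GRCh38, 5′ to 3′ on the transcript strand, with the picked sequence in capitals.
SESN1, chr6:108987286-108987315, minus strand: ttttgctttttGACAGTAcaagatgctgtg
TP53I11, chr11:44932657-44932686, minus strand: atctggaagacaGACGTAcagcttggaggg
SESN2, chr1:28282360-28282389, plus strand: gggcatgtgatGACTGTAaatgttcactgg
ZMAT3, chr3:179021892-179021921, minus strand: caaatctctatGACAGTAggttatgttttg
SESN1 and TP53I11 rose, SESN2 fell and ZMAT3 did not pass, so a copy went with each of the 3 outcomes. TP53INP1, which rose, has 1 copy of GACTGTA in its 3′ UTR of 4507 bases.

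Of the 29 tested members 5 (17.2%) carried a copy, beside 17.9% of the 11059 tested genes whose 3′ UTR was searched. Among the 4 members that rose 3 carried one (SESN1, TP53I11 and TP53INP1), and among the 12 that fell 1 did (SESN2). Over all genes, a copy was present in 33.3% of those that rose and 9.68% of those that fell. The median log2 fold change was 0.09 for genes with a copy and -0.03 for genes without, and carriers had longer 3′ UTRs (median 2817 bases, against 1101 bases for all searched genes). The part of these sequences in the rise of SESN1, TP53I11 and TP53INP1 was not tested.

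**Figure D2:**
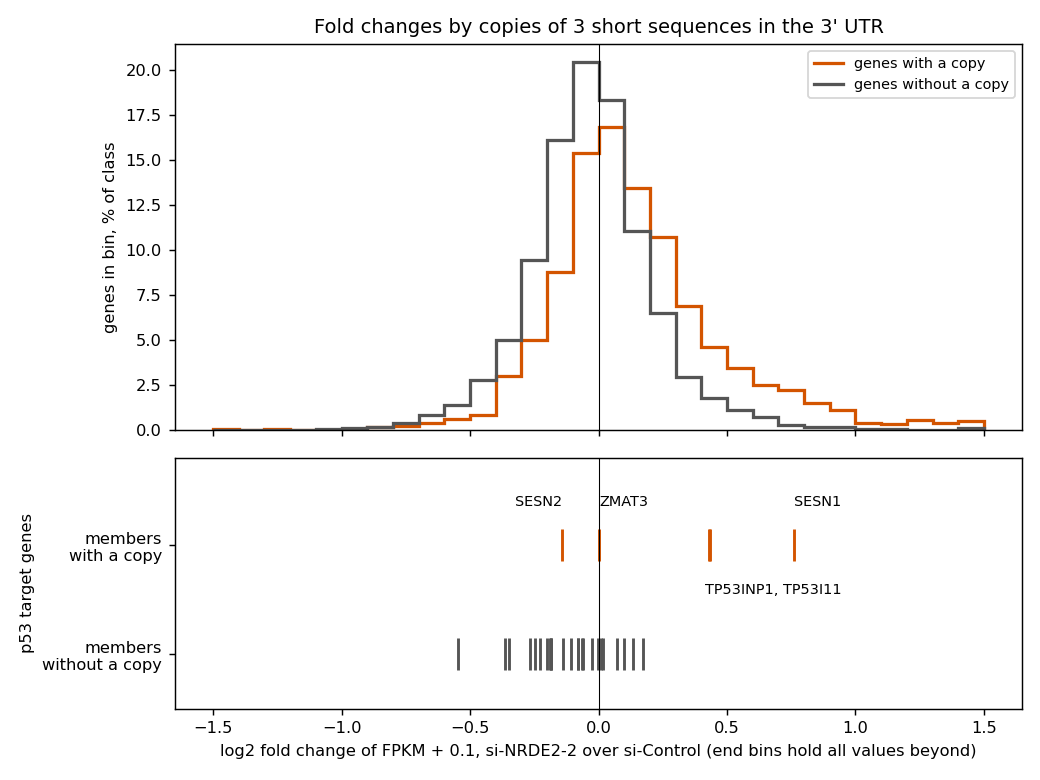
Upper panel: share of genes (%) per bin of log2 fold change for tested genes with and without any of the 3 short sequences in the 3′ UTR. Lower panel: the 29 tested p53 target genes, split the same way. Each of the 3 members beyond 0.4 (SESN1, TP53I11 and TP53INP1) has a copy, whereas SESN2 at -0.14 and ZMAT3 near 0 have one too.

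Of 4 feedback genes of p53, 1 fell slightly (25%, beside 23.0% of all genes tested) and 0 rose (beside 20.9%). MDM2, the ubiquitin ligase that degrades p53, was at 9.02, 9.65 and 10.1 FPKM in si-NRDE2-2 replicates 1, 2 and 3, against 11.2, 11.2 and 10.3 FPKM in si-Control replicates 1, 2 and 3. The groups did not overlap, but the highest si-NRDE2-2 library lay close below the lowest si-Control library, and the log2 fold change was -0.18 ± 0.06 (SE, adjusted p = 0.0252). Dropping si-NRDE2-2 replicate 1 or 2 ended this call (adjusted p = 0.067 and 0.0638), as did dropping si-Control replicate 1 or 2 (0.0856 and 0.0983). It was also lost with the replicate number as a block (0.051) and with no filter on low values (0.0549). Over its alternatives the adjusted p lay between 0.00767 and 0.0983. MDM4, a relative of MDM2 that holds p53 inactive, averaged 3.82 ± 0.240 and 4.12 ± 0.222 FPKM in the si-NRDE2-2 and si-Control groups (SD, n = 3 each), with overlapping values and a 95% interval of the log2 difference from -0.26 to 0.05. PPM1D, the Wip1 phosphatase that reverses damage signalling to p53, averaged 2.80 ± 0.0782 and 2.86 ± 0.0575 FPKM (interval -0.17 to 0.12). CCNG1, cyclin G, a partner of a phosphatase that acts on MDM2, was higher in each si-NRDE2-2 library (37.3, 38.8 and 39.5 FPKM) than in each si-Control library (36.6, 34.3 and 37.1 FPKM), yet its difference of 0.10 ± 0.05 did not pass (adjusted p = 0.10). Groups that do not overlap are common in this table, since 53.5% of all genes showed this (25.2% wholly higher and 28.3% wholly lower with si-NRDE2-2). Of the 29 tested members, 5 lay wholly higher and 13 wholly lower.

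**Figure D3:**
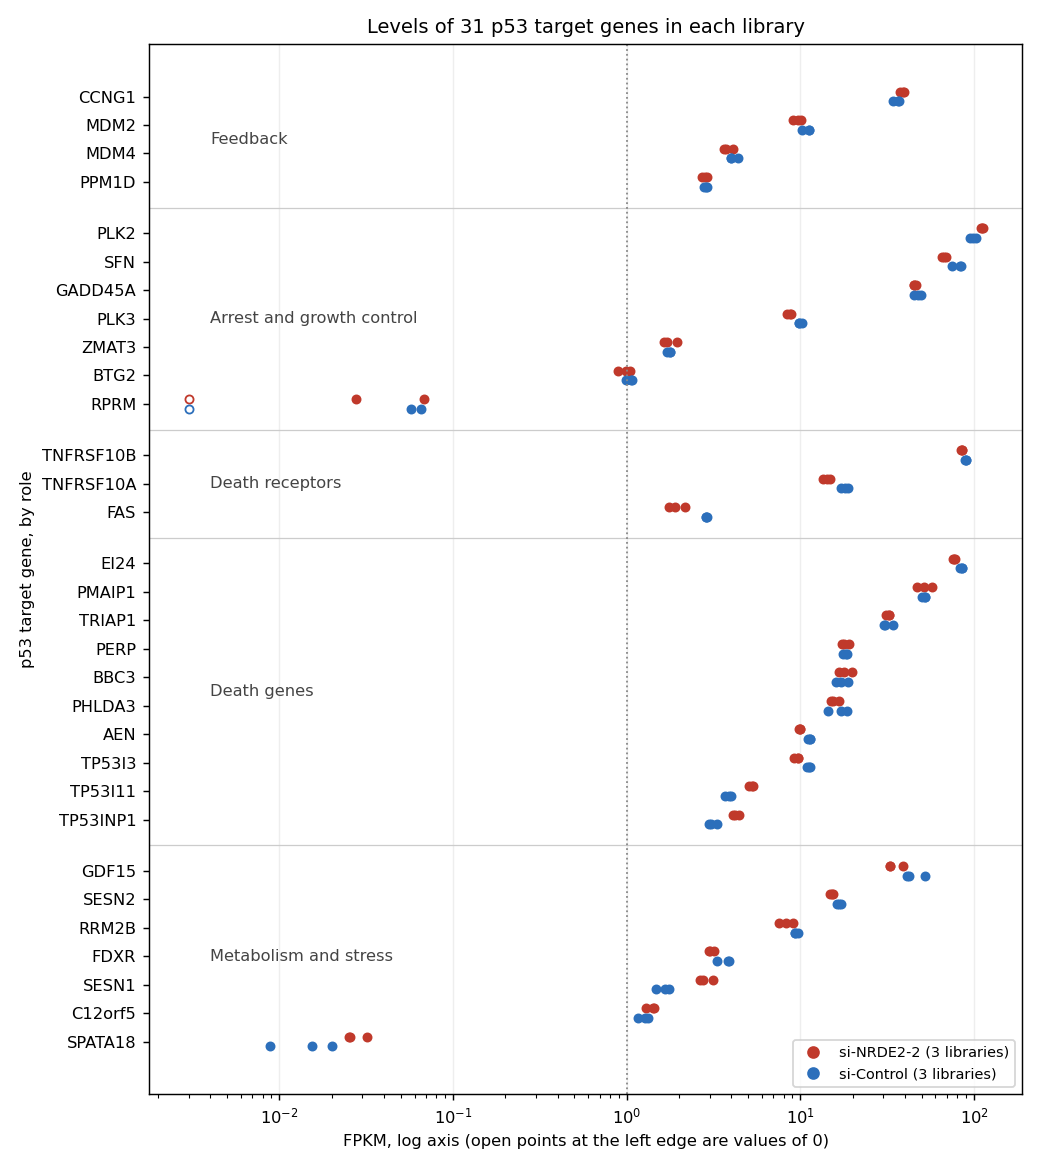
FPKM of the 31 p53 target genes (log axis) in each of the 3 si-NRDE2-2 and 3 si-Control libraries, by role and ordered within a role by the si-Control mean. The dotted line marks 1 FPKM: RPRM and SPATA18 lie far below it, and PLK2, at 110 to 112 FPKM with si-NRDE2-2 and 95.4 to 103 FPKM with si-Control, is the highest.

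Of 6 tested genes of arrest and growth control, 1 rose and 2 fell (16.7% and 33.3%, beside 20.9% and 23.0% of all genes tested). PLK2, a polo-like kinase gene that p53 induces after damage, stood at 110, 111 and 112 FPKM in si-NRDE2-2 replicates 1, 2 and 3, against 95.4, 98.1 and 103 FPKM in the si-Control replicates. Its groups were apart and the rise was 0.17 ± 0.04 (adjusted p = 0.00866). PLK3, a kinase of the same family that takes part in stress checkpoints, went the other way, at 8.78, 8.41 and 8.71 FPKM with si-NRDE2-2 and 9.82, 9.76 and 10.2 FPKM with si-Control (-0.20 ± 0.05, adjusted p = 0.00708). SFN, stratifin, which holds cyclin-dependent kinase complexes in the cytoplasm during a G2 arrest, was at 69.0, 67.2 and 65.8 FPKM with si-NRDE2-2, against 75.1, 83.5 and 84.5 FPKM with si-Control. Each si-NRDE2-2 value of SFN lay below the lowest si-Control value, replicate 1 (-0.26 ± 0.05, adjusted p = 0.00191).

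The remaining arrest genes stayed within their spread. GADD45A, a damage-induced regulator of stress kinases, averaged 45.4 ± 0.607 and 47.4 ± 2.18 FPKM in the si-NRDE2-2 and si-Control groups (SD, n = 3 each; interval of the log2 difference -0.16 to 0.04). ZMAT3, an RNA-binding zinc finger protein, averaged 1.76 ± 0.160 and 1.75 ± 0.0465 FPKM (interval -0.19 to 0.19). BTG2, an antiproliferative partner of deadenylases, sat near the filter at 0.979 ± 0.0792 and 1.04 ± 0.0470 FPKM, about 102 to 165 estimated fragments a library (interval -0.30 to 0.14). RPRM, reprimo, a G2 arrest gene, held at most 5.3 estimated fragments in any library, was listed at 0 in si-NRDE2-2 replicate 3 and si-Control replicate 2, and was not tested.

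Of the 3 death receptor genes, 2 fell (66.7%, beside 23.0% of all genes tested) and 0 rose (beside 20.9%). FAS, the receptor for FAS ligand, was at 1.76, 1.90 and 2.18 FPKM in si-NRDE2-2 replicates 1, 2 and 3, against 2.88, 2.87 and 2.86 FPKM in si-Control replicates 1, 2 and 3. The si-NRDE2-2 libraries of FAS spread more widely (SD 0.212 FPKM) than the si-Control libraries (SD 0.0124 FPKM) and all lay lower, and the fall of 0.55 ± 0.08 on the log2 scale (a ratio of 0.677, adjusted p = 4.3e-04) was the strongest among the members, with a lower fold change in 2.21% of all genes. The antisense row FAS-AS1 was listed at 0 in 5 of 6 libraries and at 0.0118 FPKM in si-Control replicate 2, but a 0 in this table can be a failed estimate, and without a stated strand setting reads of the pair cannot be told apart. TNFRSF10A, a receptor for the death ligand TRAIL, was at 14.3, 14.7 and 13.5 FPKM with si-NRDE2-2 and 18.8, 18.1 and 17.2 FPKM with si-Control, so the groups were apart (-0.35 ± 0.05, adjusted p = 3.16e-04). TNFRSF10B, the other TRAIL death receptor, was expressed far more highly and hardly differed, at 85.6, 84.2 and 85.7 FPKM with si-NRDE2-2, against 89.5, 88.3 and 89.4 FPKM with si-Control. Its groups did not overlap either, but the difference of -0.06 ± 0.04 did not pass (adjusted p = 0.212, interval -0.15 to 0.02). The TRAIL receptor genes are related in sequence, and how reads shared between them were assigned is not known here. In these bulk libraries a lower level in every cell and fewer cells at the higher level cannot be told apart.

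Among 10 genes of mitochondrial and other death pathways, 2 rose and 3 fell (20% and 30%, beside 20.9% and 23.0% of all genes tested). TP53I11, a p53-inducible gene of poorly known function, was at 5.29, 5.35 and 5.09 FPKM in si-NRDE2-2 replicates 1, 2 and 3, against 3.69, 3.90 and 3.99 FPKM in the si-Control replicates. TP53INP1, a stress protein that promotes p53-dependent death and autophagy, was at 4.12, 4.19 and 4.40 FPKM with si-NRDE2-2 and 3.31, 2.99 and 3.06 FPKM with si-Control. The groups of both genes were well apart, and the rises were alike: 0.43 ± 0.06 for TP53I11 (adjusted p = 1.88e-04) and 0.43 ± 0.07 for TP53INP1 (adjusted p = 4.08e-04). Both carry a copy of the sequences printed above.

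The death genes that fell did so by less. TP53I3, a quinone oxidoreductase also called PIG3, was at 9.19, 9.72 and 9.70 FPKM with si-NRDE2-2 and 11.3, 11.3 and 10.9 FPKM with si-Control (-0.23 ± 0.05, adjusted p = 0.00333). AEN, an apoptosis-enhancing nuclease, was at 9.98, 9.94 and 9.82 FPKM with si-NRDE2-2 and 11.1, 11.3 and 11.4 FPKM with si-Control (-0.18 ± 0.05, adjusted p = 0.0071). Neither gene's groups overlapped, and for both the spread within a group was small. EI24, an endoplasmic reticulum protein of autophagy, was at 75.7, 77.9 and 76.3 FPKM with si-NRDE2-2 and 82.5, 85.1 and 85.4 FPKM with si-Control, apart in every library (-0.14 ± 0.04, adjusted p = 0.018). That call ended when si-NRDE2-2 replicate 2 or 3 (adjusted p = 0.0543 and 0.0673) or si-Control replicate 2 (0.0785) was dropped, in a range of 0.00346 to 0.0785.

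The other 5 death genes among the members did not pass. BBC3, the BH3-only protein PUMA, averaged 18.2 ± 1.61 and 17.3 ± 1.46 FPKM in the si-NRDE2-2 and si-Control groups (SD, n = 3 each; log2 interval -0.09 to 0.23). PMAIP1, the BH3-only protein NOXA, averaged 52.1 ± 5.25 and 51.6 ± 1.13 FPKM, with 47.1 FPKM in si-NRDE2-2 replicate 1 and 57.6 FPKM in replicate 3 as its lowest and highest values (interval -0.13 to 0.15). Both genes had overlapping groups. PERP, a desmosomal membrane protein linked to p53-dependent death, averaged 18.1 ± 0.868 and 18.1 ± 0.526 FPKM (interval -0.11 to 0.11). TRIAP1, an inhibitor of apoptosis in mitochondria, averaged 32.0 ± 0.729 and 31.7 ± 2.18 FPKM (interval -0.10 to 0.13). PHLDA3, a repressor of AKT signalling, averaged 15.8 ± 0.875 and 16.7 ± 2.09 FPKM. Its si-Control libraries ran from 14.5 to 18.6 FPKM, and its log2 difference was -0.08 ± 0.08 (adjusted p = 0.448), or -0.18 without si-Control replicate 1, where it passed (adjusted p = 0.0462, range over its alternatives 0.0462 to 0.991).

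Metabolic and stress targets held the strongest rise among the members. Of 6 tested, 1 rose and 4 fell (16.7% and 66.7%, beside 20.9% and 23.0% of all genes tested). SESN1, a sestrin that restrains the growth kinase complex mTORC1 and limits oxidative stress, was at 2.64, 2.75 and 3.12 FPKM in si-NRDE2-2 replicates 1, 2 and 3, against 1.75, 1.48 and 1.66 FPKM in the si-Control replicates. The lowest si-NRDE2-2 library stood well above the highest si-Control library, and the rise of 0.76 ± 0.09 (a ratio of 1.74, adjusted p = 6.55e-05) was exceeded by 1.57% of all genes. SESN2, its paralogue and a leucine sensor that ATF4 also induces, was at 15.4, 15.1 and 14.9 FPKM with si-NRDE2-2 and 16.2, 17.2 and 16.7 FPKM with si-Control. The fall of SESN2 was 0.14 ± 0.04 on the log2 scale (adjusted p = 0.0237), a call that ended when si-NRDE2-2 replicate 2 or 3 was dropped (adjusted p = 0.08 and 0.0823), with si-Control replicate 2 left out (0.116) and with the replicate number as a block (0.0555), in a range of 0.0208 to 0.116.

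GDF15, a secreted stress cytokine, was at 38.8, 33.0 and 32.8 FPKM with si-NRDE2-2 and 42.0, 41.1 and 52.2 FPKM with si-Control. Both groups of GDF15 held 1 library above the other two (si-NRDE2-2 replicate 1 and si-Control replicate 3) without overlap between the groups, and the fall was 0.36 ± 0.09 on the log2 scale (adjusted p = 0.00705). FDXR, the reductase that feeds electrons to mitochondrial steroid and iron-sulphur enzymes, was at 3.03, 3.19 and 2.995 FPKM with si-NRDE2-2, against 3.29, 3.87 and 3.85 FPKM with si-Control (-0.25 ± 0.08, adjusted p = 0.0236). Its si-Control replicate 1 lay close to the si-NRDE2-2 values. Without si-NRDE2-2 replicate 1 or 3 the adjusted p of FDXR was 0.0533 and 0.0668, without si-Control replicate 2 or 3 it was 0.105 and 0.0638, and with no filter on low values it was 0.052 (range 0.00727 to 0.105).

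RRM2B, the p53-inducible small subunit of ribonucleotide reductase, was at 7.54, 8.32 and 9.04 FPKM with si-NRDE2-2 and 9.37, 9.34 and 9.64 FPKM with si-Control (-0.19 ± 0.07, adjusted p = 0.0368). It was the least stable of the calls. Without si-NRDE2-2 replicate 1, its lowest library, the log2 fold change of RRM2B was -0.12 (adjusted p = 0.0948), and the call was also lost without si-NRDE2-2 replicate 2 (0.0848) and without si-Control replicate 1, 2 or 3 (0.0687, 0.0825 and 0.0823), with neither the variance trend nor the robust option (0.0535) and with no filter on low values (0.082), in a range of 0.0018 to 0.0948. C12orf5, which encodes TIGAR, a phosphatase that diverts glucose to the pentose phosphate pathway, averaged 1.38 ± 0.0771 and 1.253 ± 0.0866 FPKM in the si-NRDE2-2 and si-Control groups, with an interval of the log2 difference from -0.07 to 0.34. SPATA18, a mitochondrial quality control gene, held 1.89 to 5.9 estimated fragments a library. It was listed at 0.0256, 0.0251 and 0.0319 FPKM with si-NRDE2-2 and 0.0202, 0.0155 and 0.00881 FPKM with si-Control, and was not tested.

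Related members were also set against each other within each library, as the log2 ratio of their FPKM values. The ratio of SESN1 to SESN2 averaged -2.42 ± 0.149 with si-NRDE2-2 and -3.36 ± 0.166 with si-Control (SD, n = 3 each), a difference of 0.94 (exact permutation test, two-sided, p = 0.1, adjusted p = 0.133 over 4 pairs). PLK2 to PLK3 averaged 3.69 ± 0.0420 and 3.31 ± 0.0287 in the si-NRDE2-2 and si-Control groups, a difference of 0.37, and TNFRSF10A to TNFRSF10B averaged -2.59 ± 0.0766 and -2.30 ± 0.0649, a difference of -0.29, each with the same exact p = 0.1. In these 3 pairs the groups did not overlap, and 0.1 is the smallest two-sided p that 3 against 3 libraries allow, so none could pass. The ratio of MDM2 to MDM4 averaged 1.33 ± 0.169 and 1.404 ± 0.0692, with overlapping groups and a difference of -0.08 (exact permutation p = 0.6). It was 0.02 without si-NRDE2-2 replicate 1.

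**Figure D4:**
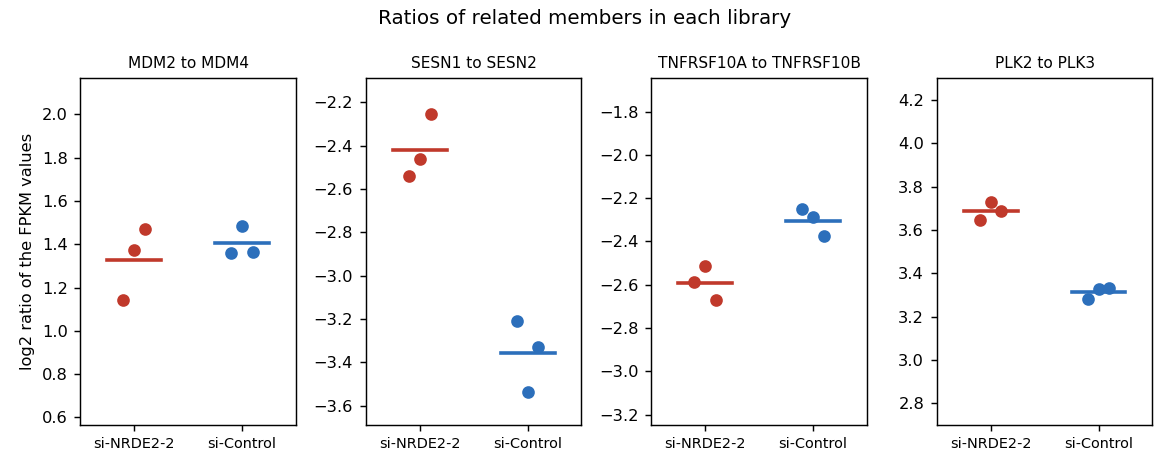
Log2 ratio of the FPKM values of 4 related pairs in each library (points) with the group mean (line), on vertical axes of equal length. SESN1 to SESN2 shifted by 0.94 and PLK2 to PLK3 by 0.37 towards the first gene with si-NRDE2-2, TNFRSF10A to TNFRSF10B by -0.29, and the MDM2 to MDM4 points overlap.

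The p53 consensus was looked for in the members' promoters. RefSeq windows of 300 bases on GRCh38.p14 (250 before to 50 after the start of the gene) were present for 25 of the 31 members, RRM2B, TNFRSF10A, PHLDA3, TNFRSF10B, GADD45A and TP53INP1 being the others. An exact match to the 10-base p53 response-element monomer, whose pattern reads the same on both strands, was found in 4 of 25 windows (16.0%), beside 6.63% of 35116 RefSeq windows and 5.08% of 9414 windows of tested genes. Paired exact matches with a spacer of at most 13 bases were found in 0 of the 25 and in 10 of all windows (0.0285%). Pairs with a mismatch were not searched for. With exact pairs this rare, the 0 cannot show that these windows lack a paired element. The single matches are shown with the motif in capitals, 5′ to 3′ on the strand of the gene.
PLK2, chr5:58460199-58460228, minus strand: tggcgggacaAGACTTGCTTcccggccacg
EI24, chr11:125569457-125569486, plus strand: cgtgcggcccGGGCATGCCCagtgcgggcg
AEN, chr15:88621296-88621325, plus strand: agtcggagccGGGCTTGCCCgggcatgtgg
FDXR, chr17:74872986-74873015, minus strand: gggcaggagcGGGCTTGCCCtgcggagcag
PLK2 rose, while EI24, AEN and FDXR fell, so the 4 genes with a match did not share a direction. Many p53 response elements lie in first introns or further upstream, outside these windows, and a match is a description of the letters only.

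Other genes of the pathway are given by lists, whose shares stand beside 20.9% higher and 23.0% lower among all genes tested. Of 20 genes of the p53 family and its regulators 17 were tested, 2 rose (11.8%) and 5 fell (29.4%), and the share called in either direction was 41.2%, beside 44.0% of all genes. The acetyltransferase gene KAT5, also called TIP60, averaged 26.9 ± 0.237 FPKM with si-NRDE2-2 and 15.2 ± 0.659 FPKM with si-Control (0.82 ± 0.05, adjusted p = 2.72e-07), and RCHY1, a p53 ubiquitin ligase, averaged 6.89 ± 0.111 and 4.57 ± 0.0959 FPKM (0.58 ± 0.05). The checkpoint kinase gene CHEK2 averaged 6.62 ± 0.246 and 8.56 ± 0.123 FPKM (-0.37 ± 0.05).

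Among 21 tested genes of a further list of p53 targets 7 rose (33.3%, beside 20.9% of all genes) and 2 fell (9.52%, beside 23.0%). The named ones were CMBL, a hydrolase gene, at 11.3 ± 0.631 and 6.16 ± 0.443 FPKM in the si-NRDE2-2 and si-Control groups (0.87 ± 0.06), and TRIM22, an interferon-inducible ubiquitin ligase gene, at 1.94 ± 0.105 and 2.90 ± 0.111 FPKM (-0.56 ± 0.07). CDKN1A, which encodes the cell cycle inhibitor p21, also rose (0.70 ± 0.04). Of the 7 that rose 4 carried a copy of the 3′ UTR sequences above, CDKN1A among them (57.1%, beside 33.3% of all genes that rose). Of the 2 that fell 0 did (beside 9.68% of all genes that fell). Sizes matter here, since 4 of the 7 rose past 0.32 on the log2 scale. Among all genes called higher past that size, 43.8% carried a copy. As stated above, the sequences were picked from these same fold changes. Carriers among genes that rose are therefore no independent evidence, for this list too. The CDKN1A copy lies at chr6:36687205-36687234, plus strand.
CDKN1A: ttctccacctaGACTGTAaacctctcgagg
Of 15 cell cycle genes that p53 lowers through p21 and the DREAM complex, 7 fell (46.7%, beside 23.0% of all genes) and 0 rose (beside 20.9%), among them PLK1 (-0.37 ± 0.04) and FOXM1 (-0.36 ± 0.06), while 8 did not pass. Of 6 regulators of the ATF4 pathway, which also acts on some members, 3 fell (50%, beside the same 23.0%) and 0 rose. The other 3 did not pass, ATF4 itself among them (0.06 ± 0.06, adjusted p = 0.454, limma). The transcription factor genes DDIT3 (-0.55 ± 0.06) and ATF3 (-0.41 ± 0.04) were among those that fell. Of the members named above as answering to ATF4 and its partners, SESN2 and GDF15 fell. TNFRSF10B, named with them, did not pass (-0.06 ± 0.04, adjusted p = 0.212, limma). The part of this pathway in the levels of SESN2, GDF15 and TNFRSF10B was not tested. The direction of the cell cycle and ATF4 lists was already known from earlier results of these data.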

How the data were processed

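RNA-seq of 6 MDA-MB-231 libraries was used. The extraction used a mirVana kit and the libraries a stranded TruSeq mRNA kit, per the labels' protocols. The authors deposited one table whose values carry decimals, sum to 448986 to 486271 per library and were read as FPKM. The submitters' processing notes name hg19, DESeq2 1.10.1 and STAR 2.5.1b with no role given, and the program, annotation and strand setting behind the FPKM values are not given in the sources used here. RPS18 is listed at 0 throughout, so a 0 can be a failed estimate.

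Values were used without further scaling. The test took genes that reached 1 FPKM in 3 or more libraries, leaving out 159 small RNA rows. Group was the only term in a limma 3.58.1 model (R 4.3.3) of log2(FPKM + 0.1), its prior variance trended on the mean and robust, with Benjamini-Hochberg adjustment over 11789 genes, and the fit was tested on simulated data. Since 0.1 is added before the log2, fold changes of low genes come out too small. Errors are SE for fold changes and SD for FPKM. Intervals are 95% intervals from limma. Fragments were estimated from depth and the length of 1 GENCODE release 29 transcript a gene, chosen by annotation rank, which also gave the 3′ UTR. Row names matched RefSeq for 24050 and GENCODE for 23513 of 25363 names. Since those references are GRCh38 and the table is hg19, they served for names and sequence only. The members, lists and pairs were chosen with earlier results of these data known. All members are named, and for the other lists up to 4 called genes past 1.25-fold by smallest adjusted p, with ATF4 added for its own list. Some results of the other lists are not reported here. Alternatives were 2 pseudocounts, 2 filters, 2 scalings, a prior variance with neither trend nor robust option, a replicate block, each library left out, small RNA rows kept and, added after the data were seen, removal of GC and length trends.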

Additional observations from a re-analysis of the deposited data

How the results depend on the processing

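The number of genes called (5185) stayed within 1.5 times under every alternative, from 3929 to 5494 when single libraries were left out. The 4 members that rose were called in each alternative in which they were tested. With a mean of at least 5 FPKM only 1 rose, because SESN1, TP53I11 and TP53INP1 then lay below the filter. The 12 lower members became 7 to 11 when single libraries were left out (7 without si-Control replicate 2), and the members called higher stayed at 4. Of 16 called members 11 kept their call in every alternative run, and of 13 uncalled ones 8 stayed uncalled with the same sign. The other 5 changed sign in some alternative. PERP was at 0.0030 with libraries scaled to the same median, 0.0038 with quantile normalization and -0.039 to 0.029 over the fits without 1 library (0.029 without si-NRDE2-2 replicate 1). PMAIP1 was at -0.00033 with quantile normalization, -0.019 with GC and length trends removed and -0.065 to 0.080 without 1 library. ZMAT3 was at -0.015 with GC and length trends removed and -0.067 to 0.050 without 1 library. TRIAP1 ran from -0.017 to 0.072 and PHLDA3 from -0.18 to 0.0012 without 1 library. The ratio of MDM2 to MDM4 ran from -0.15 to 0.018. Same-numbered libraries did not deviate together (correlations of deviations -0.12, 0.11 and -0.12). With 3 libraries a group, these values cannot show whether same-numbered libraries were handled as pairs, which the labels do not state. With the replicate block 4686 genes, 4 higher members and 10 lower members were called. Depth limits BTG2, C12orf5, FDXR and FAS, with 102 to 425 estimated fragments in a library, and SESN1, with 284 to 513. RPRM and SPATA18 were tested only with no filter on low values (adjusted p = 0.824 and 0.155, limma).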

Other observations

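The TRAIL receptor family was looked at beyond the listed death receptors after its values were seen. The decoy receptor genes TNFRSF10C and TNFRSF10D, which bind TRAIL without a working death domain, both rose. TNFRSF10C was at 1.94, 1.79 and 2.10 FPKM in si-NRDE2-2 replicates 1, 2 and 3, against 1.55, 1.45 and 1.07 FPKM in the si-Control replicates (0.50 ± 0.13, adjusted p = 0.00802, limma). TNFRSF10D was at 13.3, 13.8 and 14.3 FPKM with si-NRDE2-2 and 11.9, 11.8 and 12.2 FPKM with si-Control (0.20 ± 0.05, adjusted p = 0.00486). The groups of both genes were apart, with each si-NRDE2-2 library above each si-Control library. Differences between these genes and TNFRSF10A or TNFRSF10B were not tested. The 4 receptor genes are related in sequence, the handling of reads shared between them was not stated, and TNFRSF10D carries a copy of GACGTA in its 3′ UTR.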
